A study of Drosophila melanogaster with 2 samples.

Results

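The genes described here encode the subunits of the proteasome, and the question addressed is where on these genes the transcription factor Spalt major (Salm) was found by ChIP-seq, the sequencing of DNA recovered with an immunoprecipitated protein. Members were the protein-coding genes of the dm6 annotation whose symbol starts with Prosalpha or Prosbeta, or with Rpn or Rpt and a digit. This rule found 48 of 13945 protein-coding genes, 25 of the core particle and 23 of the regulatory particle. By symbol, 32 are the standard subunits (14 core, 18 regulatory) and 16 carry an R or T after the number and are duplicated copies of a standard gene (11 core, 5 regulatory). The embryos were whole Drosophila melanogaster aged 0 to 16 h from 1 transgenic line, which carries salm with GFP fused to the C-terminus of its protein, and the fusion protein was recovered, per the sample description, with an anti-GFP antibody (the antibody field names salm itself). Both biological replicates belong to this 1 group, with no second condition, so each value is a description with no test, and an average over all tissues and stages of the embryo. Peak lists hold no expression values, so the labelled stage and tissue could not be checked against marker genes.

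The proteasome is the protease that degrades ubiquitinated proteins. Its core particle is a barrel of stacked rings, the outer ones of alpha subunits (Prosalpha genes) that gate the entrance, the inner ones of beta subunits (Prosbeta genes), of which Prosbeta1, Prosbeta2 and Prosbeta5 carry the proteolytic sites. The regulatory particle caps the barrel: its base holds a ring of ATPases (Rpt genes) that unfold substrates and the non-ATPases Rpn1, Rpn2, Rpn10 and Rpn13, and its lid (Rpn3, Rpn5, Rpn6, Rpn7, Rpn8, Rpn9, Rpn11, Rpn12) removes ubiquitin. The genes are expressed in nearly all cells, whereas several of the copies, such as Prosalpha3T and Prosalpha6T, are known to be expressed in the male germ line. Salm is a zinc-finger protein known for its roles in the embryonic head and tail, trachea and oenocytes.

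A summit is the position of the highest signal within a peak, and signal is the strength value of the authors' peak caller, which has no unit. The thresholded list of 3421 peaks was kept by the authors for how reproducibly its peaks ranked in the replicates, and its signals ran from 141 to 2154 with a median of 206. The pooled list of 30000 peaks includes every thresholded peak as its strongest 3421 and goes down to a signal of 31.3, with a median of 55.5. The number of reads was not given, so depth is unknown. A summit was counted for a gene when it lay in a window from 2 kb upstream to the end of the gene, and at its start when it lay within 500 bp of a transcription start site (TSS) of that gene. Windows of members were short, 2881 to 6500 bp with a median of 3382, against a median of 4166 over all protein-coding genes. The length of the window bears on the count in it, whereas the 500 bp rule is the same for genes of any length.

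Few proteasome genes held a thresholded summit, and those that did were mainly lid genes. Of the 48 members 6 (12.5%) had a thresholded summit in their window, against 21.4% of all protein-coding genes. These were Rpn3, Rpn6, Rpn9 and Rpn11 of the lid, Rpn13 of the base, and Prosbeta6 of the core. By particle this is 5 of 23 regulatory genes (21.7%), near the share of all genes, and 1 of 25 core genes (4%). Among the standard subunits it is 5 of 18 (27.8%) and 1 of 14 (7.14%). None of the 7 standard alpha genes, the 6 standard ATPase genes or the 16 copies had one, while 4 of the 8 lid genes did. At the start of the gene the count was 4 of 48 (8.33%), all regulatory, against 13.5% of all genes. A single gene or summit more or less would move these shares by a large step, and the difference between the particles was not tested.

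The strongest peak of any member lay at Rpn3, which encodes a scaffold subunit of the lid. Its signal was 270 (rank 1084 of the pooled list), and its rank was 989 in the replicate 1 list and 1370 in the replicate 2 list. The summit lay 13 bp upstream of the TSS, between Rpn3 (arm 2L, 19051790 to 19053681, plus strand) and l(2)37Bb, which starts 178 bp away on the other strand. Rpn3 was the only member among the strongest 1710 thresholded peaks.

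Rpn6, the lid subunit known from yeast to clamp the lid to the core, followed with a signal of 189 (rank 2023; replicate ranks 2355 and 2217; arm 2R, peak 14752218 to 14752607). The summit lay in an intron of the longest Rpn6 transcript, 142 bp upstream of the start of the shorter ones, and the nearest TSS was that of ave on the other strand, 108 bp away. At Rpn9, another lid subunit, the signal was 174 (rank 2350; replicate ranks 2488 and 2499). This summit lay in an intron 222 bp downstream of the Rpn9 start. At both genes the ranks in the replicates were close to each other and to the pooled rank, and the own TSS was not the nearest one.

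Rpn13 encodes a ubiquitin receptor of the base. Its thresholded summit lay 12 bp upstream of the own TSS, with a signal of 146 (rank 3248; arm 2R, peak 13960221 to 13960610). It ranked 2921 in replicate 1 and 5229 in replicate 2, so it was within the strongest 3421 of the first list and outside those of the second. Weaker pooled summits of signal 68 and 50 lay farther upstream, nearest to the TSS of CtsL1, a cathepsin L gene.

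The other thresholded summits lay far from the member's own start. In the window of Rpn11, the deubiquitinating enzyme of the lid, the thresholded summit had a signal of 165 (rank 2590; replicate ranks 3074 and 2424) and lay 1512 bp upstream of the Rpn11 TSS, in an intron of qtc and 487 bp downstream of a qtc TSS. A second Rpn11 summit, 341 bp upstream of its TSS, had a signal of 139 (rank 3544; replicate ranks 3144 and 3991) and lay just outside the thresholded list. The summit counted for Prosbeta6, a beta subunit without a proteolytic site, had a signal of 146 (rank 3242). It lay 1924 bp upstream of Prosbeta6 but 143 bp upstream of the TSS of Su(P), the next gene on the same strand. CG4101 starts on the other strand, 2068 bp upstream of Prosbeta6. The summit thus lay between the starts of Su(P) and CG4101, at nearly the same distance from each. This summit ranked 3611 in replicate 1 and 3468 in replicate 2, below the strongest 3421 of either. No core gene therefore had a thresholded summit at its own start. Only Rpn3 and Rpn13 had a thresholded summit within 500 bp with no other gene's TSS nearer, 2 of 48 (4.17%) against 9.85% of all genes. By this rule the lid count was 1 of 8 (12.5%), near the share of all genes.

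**Figure D1:**
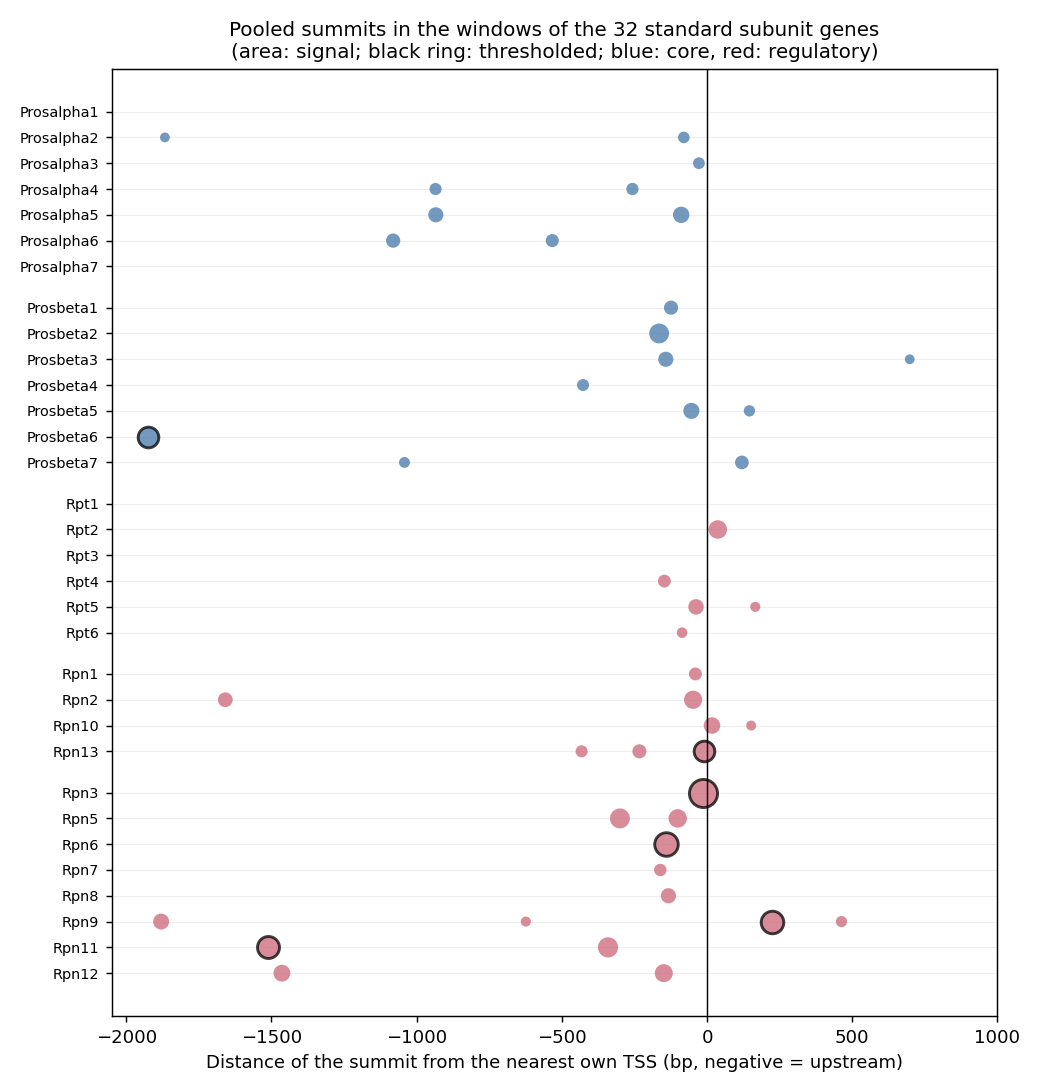
Pooled summits in the windows of the 32 standard subunit genes, by distance in bp from the nearest own TSS (negative is upstream). The area of a point grows with signal and a black ring marks a thresholded summit. Rings lie within 250 bp of a TSS at Rpn3, Rpn6, Rpn9 and Rpn13, and 1512 and 1924 bp upstream at Rpn11 and Prosbeta6.

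The genomic sequence around 6 of these summits is shown because it lets the strongest sites of each kind be compared: the strongest member peak (Rpn3), the near-threshold site of Rpn11, the site counted for Prosbeta6, the strongest site at a core start (Prosbeta2), a site between head-to-head genes (Rpt5) and a site with other words (Prosbeta3). Sequences are from Release 6 of the genome (dm6), read 5′ to 3′ on the strand of the member, at most 100 bases to either side of the summit and shortened at annotated untranslated regions. Capitals mark matches, on either strand, to words searched: TATCGATA (the DRE, bound by DREF at housekeeping promoters), GAGAG (GAGA factor), CAGCTG (an E-box), GGTCACAC (the core of motif 1, bound by M1BP) and TGACNNNGC (the core of the antioxidant response element, bound by CncC with Maf-S, known to activate proteasome genes in flies).
Rpn3, chr2L:19051677-19051804, plus strand: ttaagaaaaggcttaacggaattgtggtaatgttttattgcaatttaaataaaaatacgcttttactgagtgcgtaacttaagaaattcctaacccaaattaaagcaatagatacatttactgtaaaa
Rpn11, chr2L:5060031-5060231, minus strand: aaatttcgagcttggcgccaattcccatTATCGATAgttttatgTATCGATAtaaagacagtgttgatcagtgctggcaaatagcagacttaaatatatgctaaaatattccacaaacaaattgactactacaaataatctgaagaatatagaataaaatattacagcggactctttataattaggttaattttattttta
Prosbeta6 window, chr3L:16612242-16612442, minus strand: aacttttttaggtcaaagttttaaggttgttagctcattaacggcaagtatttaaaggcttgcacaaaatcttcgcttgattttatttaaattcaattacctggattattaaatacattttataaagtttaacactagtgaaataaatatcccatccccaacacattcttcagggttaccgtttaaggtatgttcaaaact
Prosbeta2, chr3L:14999686-14999886, plus strand: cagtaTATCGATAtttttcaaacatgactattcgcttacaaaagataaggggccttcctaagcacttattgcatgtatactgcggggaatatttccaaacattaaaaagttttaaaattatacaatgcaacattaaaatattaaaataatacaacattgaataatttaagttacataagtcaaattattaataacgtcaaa
Rpt5, chr3R:23752820-23752890, plus strand: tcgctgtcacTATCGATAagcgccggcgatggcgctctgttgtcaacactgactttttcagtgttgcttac
Prosbeta3, chr3R:9006268-9006468, minus strand: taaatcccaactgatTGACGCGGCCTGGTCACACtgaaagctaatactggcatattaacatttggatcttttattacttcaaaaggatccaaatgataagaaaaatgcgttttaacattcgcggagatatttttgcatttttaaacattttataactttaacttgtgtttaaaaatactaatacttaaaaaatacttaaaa

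The stretch counted for Prosbeta6, shown in full, has none of the 5 words. At Rpn3, the strongest site, the 128 bases shown have none either, but they are shortened, and the full 100 bases to either side of its summit hold the DRE word. The Rpn11 stretch has the DRE word in 2 places, and the Prosbeta2 and Rpt5 stretches have 1 each. In the Prosbeta3 stretch the antioxidant word matches on both strands, and its match on the other strand overlaps the motif 1 core. The summit there lay 142 bp upstream of Prosbeta3 and 88 bp upstream of Iru, which starts 230 bp from Prosbeta3 on the other strand. These words lie at the end of the stretch farther from Prosbeta3, closer to the Iru start.

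In the whole pooled list, which includes the thresholded peaks, the picture differed between standard genes and copies. A pooled summit lay in the window of 30 of 48 members (62.5%, against 61.4% of all genes) and within 500 bp of an own TSS of 28 (58.3%, against 49.9%). Among the 32 standard genes the count at the start was 26 (81.2%), and among the 16 copies it was 2 (12.5%). At the start, standard core genes had 10 of 14 (71.4%) and standard regulatory genes 16 of 18 (88.9%). By window the 2 were nearly alike, 12 of 14 (85.7%) and 16 of 18 (88.9%), so the gap depends on the rule. With the copies included, the window counts were 13 of 25 core genes (52%) and 17 of 23 regulatory genes (73.9%). All 8 lid genes and all 4 base non-ATPase genes had a pooled summit at their start, as did 6 of 7 beta, 4 of 7 alpha and 4 of 6 ATPase genes. Without a pooled summit at the start were Prosalpha1, Prosalpha6, Prosalpha7, Prosbeta6, Rpt1 and Rpt3.

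**Figure D2:**
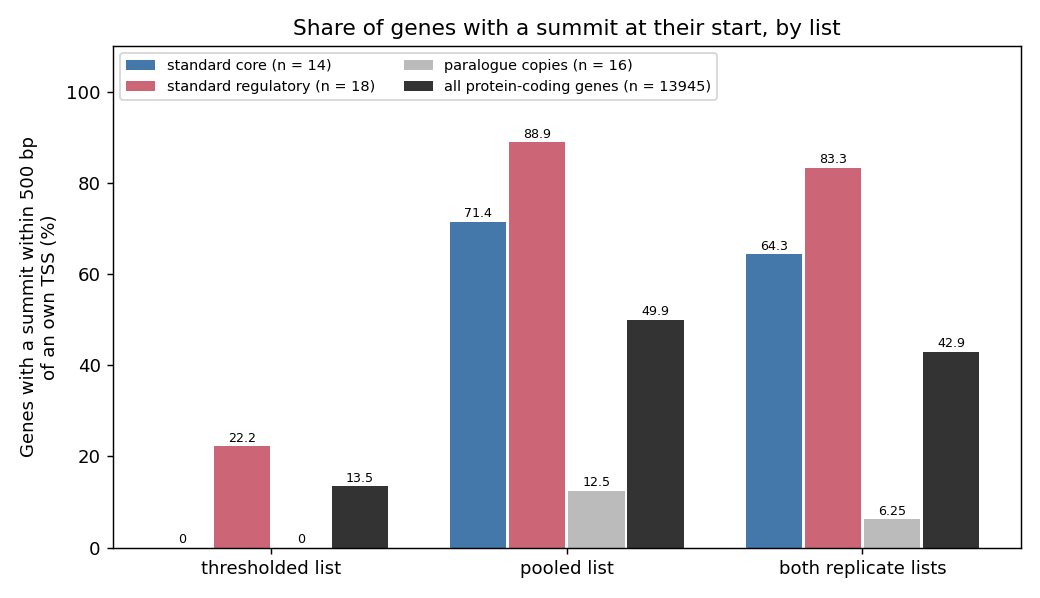
Percentage of genes with a summit within 500 bp of an own TSS, in the thresholded list, the pooled list and both replicate lists, for standard core genes, standard regulatory genes, copies and all protein-coding genes. In the pooled list the standard core (71.4%) and regulatory genes (88.9%) stand above all genes (49.9%) and the copies (12.5%) below.

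The same contrast appeared in the replicate lists, each called alone, which held 30000 peaks each. Of the standard genes 24 of 32 (75%) had a summit at their start in both lists, against 42.9% of all protein-coding genes, 1 in replicate 1 only, 3 in replicate 2 only and 4 in neither. Of the copies 1 of 16 (6.25%) had one in both lists and 14 had one in neither. All 12 lid and base non-ATPase genes had a summit in both. Summits were sought in each list by itself, so those of a gene need not be at the same site. At Prosbeta5, for example, the strongest pooled summit lay in no replicate 2 peak. The pooled peaks were called from the same libraries, so the replicate lists are not independent of them. Reads from similar copies can be hard to place uniquely, their treatment in the peak calls was not stated, and its part in the low count of the copies was not tested.

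The copies with a pooled summit were Prosbeta2R2 and Rpt6R. At Prosbeta2R2 the summit (signal 52.4, rank 16148; replicate ranks 14684 and 11713) lay 115 bp upstream of the gene and 14 bp from the TSS of its head-to-head neighbour CG1116. At Rpt6R it lay 166 bp upstream (signal 50.6, rank 16892), with a rank of 7137 in replicate 1 and no peak in replicate 2. The male germ line copies Prosalpha3T, Prosalpha4T1, Prosalpha4T2 and Prosalpha6T held no summit in any of the 4 lists. Nor did Prosalpha1R, Prosbeta2R1, Prosbeta4R1, Prosbeta4R2, Prosbeta5R1, Prosbeta5R2, Rpt3R, Rpt4R, Rpn12R and Rpn13R.

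Where standard genes had a pooled summit at their start, it was of middling strength. The strongest such summit per gene had a median signal of 85.5 over the 26 standard genes (range 38.5 to 270), against 92.7 over the 6954 protein-coding genes with one. Core genes had a median of 66.3 over 10 genes (46 to 134) and regulatory genes 112 over 16 (38.5 to 270). Within the regulatory particle the lid had 137 (52.9 to 270, 8 genes), the base non-ATPases 104 (57 to 146, 4 genes) and the ATPases 69.3 (38.5 to 117, 4 genes). Alpha genes had the lowest median, 49.5 (46 to 91.2, 4 genes), and beta genes 73.3 (49.2 to 134, 6 genes). The ranges of all 5 subgroups overlap, although the highest alpha value (91.2) was below the median of the lid and of the base non-ATPases.

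**Figure D3:**
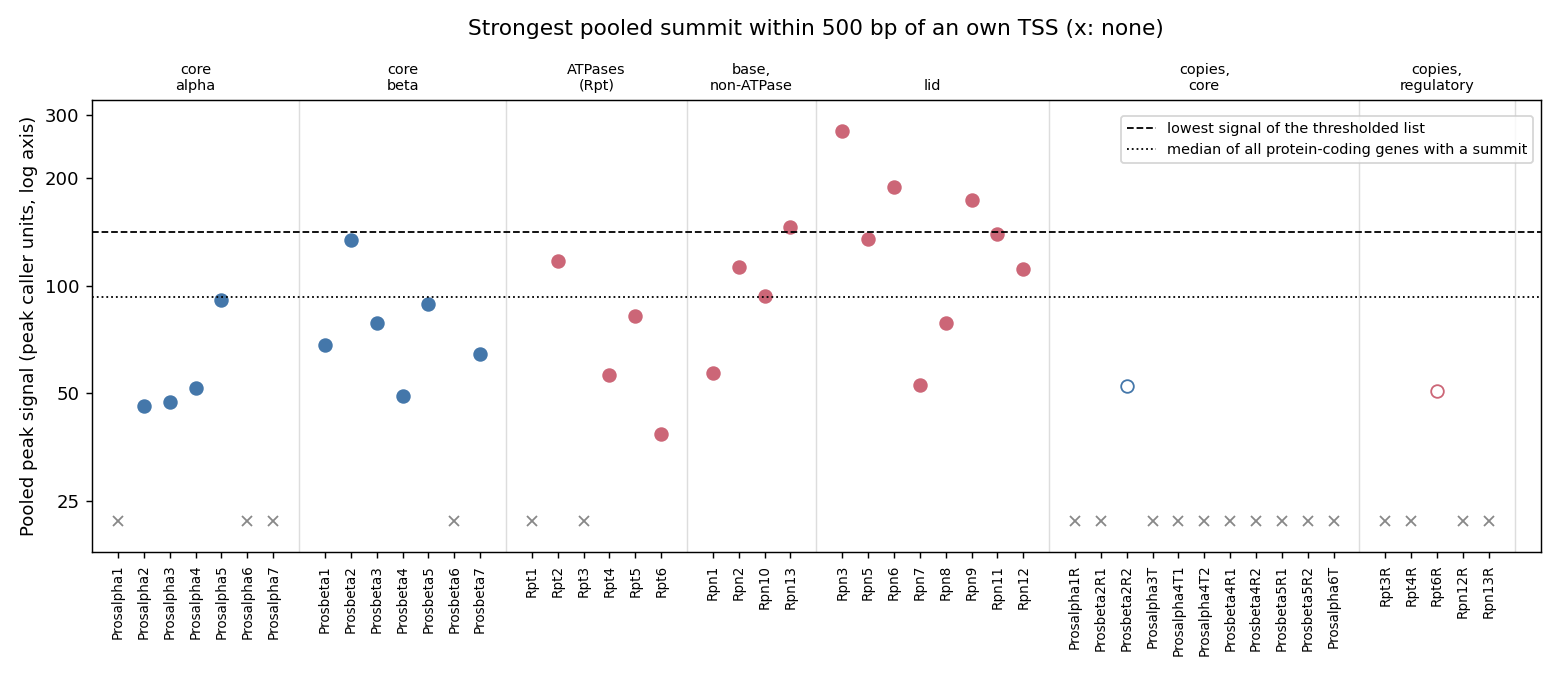
Signal of the strongest pooled summit within 500 bp of an own TSS for each of the 48 members (log axis, peak caller units), with a cross for genes without one and open points for copies. The dashed line is the lowest thresholded signal (141) and the dotted line the median of all protein-coding genes with a summit (92.7). Only Rpn3, Rpn6, Rpn9 and Rpn13 lie above the dashed line.

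By rank, 12 of the 32 standard genes (37.5%) had their strongest summit at the start below the threshold but within the strongest 10000 of the pooled list, against 17.7% of all genes. Another 9 (28.1%) ranked 10001 to 20000, against 12.4%, and 1 (3.12%) ranked 20001 to 30000, against 6.25%. Together with the 4 above the threshold (12.5%, against 13.5%), these make up the 26. The share of standard genes was thus close to that of all genes at the top of the list and higher in both middle bands.

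Several sites lay just below the threshold. After the Rpn11 site came Rpn5 of the lid (signal 135, rank 3731; replicate ranks 4018 and 3361), whose summit lay 300 bp upstream of its TSS and 119 bp from that of Hat1, a histone acetyltransferase gene on the other strand. Prosbeta2, which carries the trypsin-like site, had the strongest summit at a core start (signal 134, rank 3796; replicate ranks 5108 and 2975). It lay 165 bp upstream of Prosbeta2 and 120 bp upstream of mRpL39, a mitochondrial ribosomal protein gene. Rpt2 had a summit 37 bp downstream of its TSS (signal 117, rank 4797), with ranks of 10713 and 2752 in the replicates. The scaffold subunit gene Rpn2 had one 48 bp upstream (signal 113, rank 5102), with ranks of 5682 and 6400 in the replicates. Rpn12 of the lid had one 149 bp upstream (signal 111, rank 5291), with ranks of 6280 and 16683. The threshold therefore divides summits whose signals lie close together. At 146, that at the start of Rpn13 and the distant one in the Prosbeta6 window are inside. Those at the starts of Rpn11 at 139, Rpn5 at 135 and Prosbeta2 at 134 are outside, although the more distant Rpn11 summit is inside.

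The replicates placed the borderline genes differently. Among the strongest 3421 peaks of replicate 1, summits at the start of a member were those of Rpn3, Rpn6, Rpn9, Rpn11 and Rpn13. Among as many of replicate 2 they were those of Rpn3, Rpn6, Rpn9, Rpn5, Prosbeta2 and Rpt2. Rpn3, Rpn6 and Rpn9 were thus at the top of both. For standard core genes the median rank of the strongest summit at the start was 9886 in replicate 1 (10 genes) and 20214 in replicate 2 (10 genes). For standard regulatory genes it was 6280 (15 genes) and 6400 (17 genes), and over all protein-coding genes 7088 and 7640. Prosbeta3, for example, ranked 7691 in replicate 1 and 28541 in replicate 2, and Prosbeta1 ranked 19797 and 8871.

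**Figure D4:**
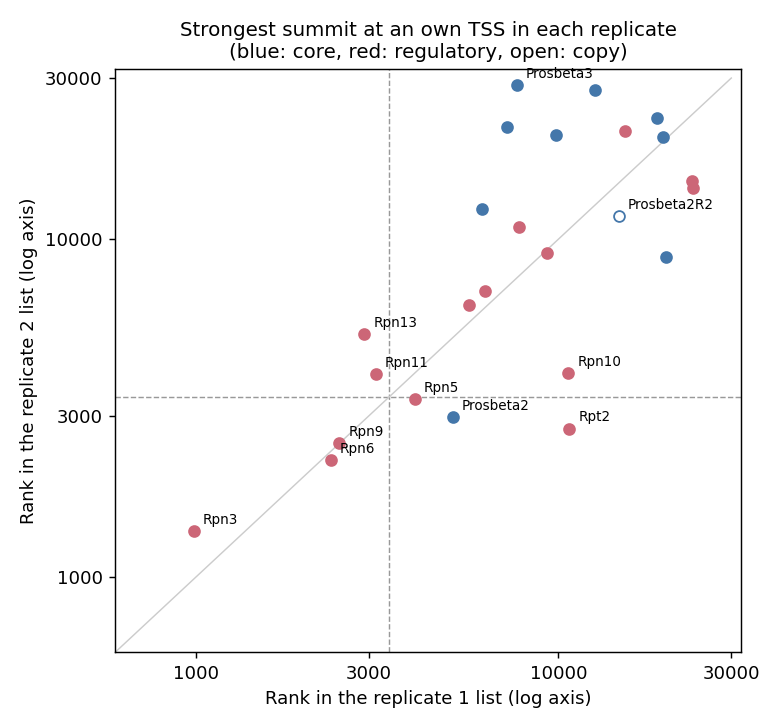
Rank of the strongest summit within 500 bp of an own TSS in the replicate 1 and replicate 2 lists (log axes, low ranks are strong peaks) for the 25 members with one in both, core in blue, regulatory in red, copies open. Dashed lines mark rank 3421. A gene's summits in the lists need not be at the same site. Rpn3, Rpn6 and Rpn9 lie inside both lines, and every core gene but Prosbeta2 lies outside both.

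Summits at the start lay mostly upstream of it. In 22 of the 26 standard genes the strongest one was upstream, with a median of 87.5 bp upstream (106 bp over 10 core genes, 67 bp over 16 regulatory genes). It was nearest to the own TSS in 15 of the 26, in 4 of the 10 core genes and 11 of the 16 regulatory genes. In the other 11 another gene's TSS was nearer, as at Prosbeta1, where the summit lay 3 bp downstream of the TSS of the exosome gene Rrp42, at Prosbeta4, 10 bp downstream of that of Nubp1, and at Rpt5, 4 bp upstream of that of RanBP3. Counting any summit within 500 bp with no other TSS nearer left 19 of 48 members (39.6%, against 41.1% of all genes), 5 of 14 standard core and 13 of 18 standard regulatory genes.

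Many members share their promoter region with a neighbour. Of the 32 standard genes 19 had a protein-coding gene starting within 1 kb on the other strand, head to head, against 35.2% of all protein-coding genes, and 3 of the 16 copies did. A pooled summit lay at the start of 15 of these 19 and of 11 of the 13 others. Over all protein-coding genes the shares were 68.8% of head-to-head genes and 39.5% of the rest. A ChIP peak between head-to-head genes cannot be told apart by gene.

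Promoter sequence differed between standard genes and copies. From 250 bp before to 50 bp after the gene start, the DRE word TATCGATA occurred in 12 of 32 standard promoters (37.5%), in 0 of 16 copies and in 9.36% of all protein-coding promoters. These were Prosalpha3, Prosalpha5, Prosalpha6, Prosbeta1, Prosbeta2, Prosbeta6, Rpn3, Rpn7, Rpn9, Rpn12, Rpn13 and Rpt5, or 6 of 14 core and 6 of 18 regulatory genes. The word lay close to the start in some, 6 bp upstream at Prosbeta2, 12 bp at Prosalpha6 and 16 bp at Prosalpha5. It lay far from the start in others, 193 bp upstream at Rpn3 and 213 bp at Rpn13. The words described above near the summits of Prosbeta2 and Rpn3 are other copies than these. The GAGA word GAGAG occurred in 3 of 32 standard promoters (9.38%) and 6 of 16 copies (37.5%), against 29.7% of all. The E-box word CAGCTG occurred in 1 standard promoter, Rpt3, and 1 copy, Rpt3R, against 17.7% of all.

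Motif 1 and antioxidant words were found in few. GGTCACAC occurred in 5 of 32 standard promoters (15.6%, against 7.7% of all), those of Prosalpha2, Prosalpha4, Prosbeta3, Rpn1 and Rpn7. TGACNNNGC occurred in 5 of 32 (15.6%, against 8.63%), those of Prosalpha2, Prosbeta3, Rpn1, Rpn7 and Rpt6. The reverse complement of this word ends in letters that the motif 1 word also holds, so 1 stretch can match both. Median promoter GC content was 32.5% in standard core genes, 33.7% in standard regulatory genes and 32.7% in copies, against 38% of all.

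**Figure D5:**
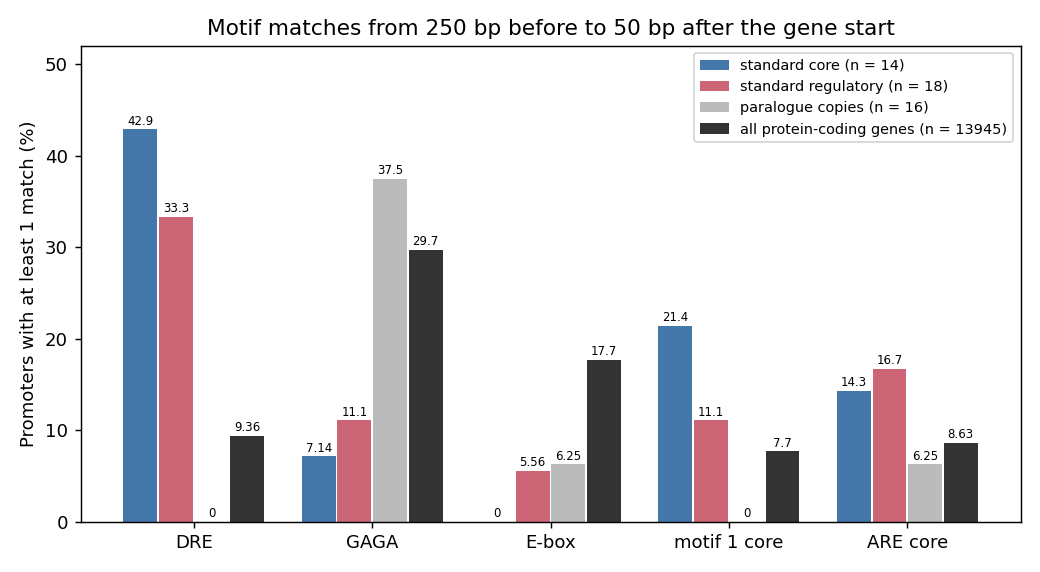
Percentage of promoters (250 bp before to 50 bp after the gene start) with at least 1 match on either strand to each of 5 words, for standard core genes, standard regulatory genes, copies and all protein-coding genes. The DRE word is found in 42.9% and 33.3% of standard core and regulatory promoters, in no copy and in 9.36% of all.

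The DRE word in the searched promoter did not divide standard genes by whether they held a summit. A pooled summit lay at the start of 10 of the 12 standard genes with the word and of 16 of the 20 without it. Over all protein-coding genes it did at 72.5% with the word and 47.5% without. The word was sought around the outermost start of a gene, whereas a summit counted at any of its TSSs. Rpn11 is among those without the word, though the stretch around its summit 341 bp upstream holds it. At Rpn6 and Rpn8 the summit lay at an inner TSS, whose promoter was not searched. Within 100 bp of a summit the word stood at 10 of the 49 pooled summits in members' windows (20.4%), against 1.91% of all 30000 pooled summits and 2.66% of thresholded ones. These sets are unlike, since the 49 come from gene windows and the full lists were not limited to gene windows or promoters. The word occurred in 9.36% of all protein-coding promoters, but those windows span 300 bp around gene starts and the summit windows 201 bp. All of the 49 had a width of 390 bp and 23 lay between genes, 11 in introns, 8 in 5′ untranslated regions, 6 in coding sequence and 1 in a 3′ untranslated region. Each of the 49 summits lay at the middle of its peak, which limits how finely a word can be set against a summit.

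Genes that assemble, regulate or feed the proteasome were looked at beside the subunits: Pomp, PI31, REG, Sem1, Uch-L5, Usp14, Ubqn, Rad23, rngo, cnc, maf-S, Keap1, TER94, Ufd1-like, Npl4, Ubi-p5E, Ubi-p63E, Uba1 and Pngl. All 19 were matched in the annotation. A thresholded summit lay in the windows of 4 of them, against 21.4% of all genes, and at the start of 2, against 13.5%. A pooled summit lay in the windows of 18, against 61.4% of all genes, and at the start of 16, against 49.9%. Pomp, the chaperone that assembles the core particle, had a thresholded summit 232 bp upstream of its TSS (signal 294, rank 904), stronger than that of any subunit gene. The gene cnc, which encodes CncC and other isoforms, held 3 thresholded summits in its long window, the strongest 309 bp downstream of a TSS (signal 275, rank 1043). Keap1, which encodes the inhibitor of CncC, held 2, the strongest (signal 696, rank 148) 862 bp upstream of its TSS and nearest to that of kuk, 563 bp away. REG, a proteasome activator, had 1 of signal 145 (rank 3293) at 1866 bp downstream of its TSS. The lid subunit gene Sem1, which the symbol rule leaves out, had only a pooled summit, 14 bp upstream (signal 49.1, rank 17582), and rngo had none.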

How the data were processed

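The samples were 2 ChIP-seq libraries of 1 group. The authors called the deposited peaks, per the deposited descriptions, from each replicate by itself and from the pool, against a control not analysed here, and derived the thresholded list by the irreproducible discovery rate. Not given in the sources used here were the aligner, the peak caller, versions and thresholds. Fragments were sonicated to 200 to 800 bp, per the labels. The deposited signal is the peak caller's strength value, whose scale differs between lists, so lists were compared by rank. The deposited −log10 q-value has a ceiling that all thresholded peaks share and was not used.

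Coordinates are dm6. Genes, transcripts and untranslated regions came from Ensembl release 115 (BDGP6.54) and sequence from the RefSeq copy of Release 6. All 48 members' coding sequences start with ATG there, and none of the 93421 peaks runs past an arm end. Scaffolds outside the arms X, 2L, 2R, 3L, 3R and 4 were left out, the summit is the peak start plus the deposited offset, and a TSS is the start of any annotated transcript. Counts of members stand beside the share of all protein-coding genes. No test was run, since there is no contrast between samples and genes are not replicates. The members, lists, words and rules were chosen with earlier results of these data known. All members are named, and neighbours where their TSS is nearest to a member's summit, except 1 that is not reported here; the 5 below the threshold (Rpn5, Prosbeta2, Rpt2, Rpn2 and Rpn12) are the strongest pooled members with no thresholded summit, and other examples were picked after their values were seen. Functions were tested on simulated data. Python 3.11.15, numpy 2.4.6, pandas 2.3.3 and matplotlib 3.10.9 were used.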

Additional observations from a re-analysis of the deposited data

How the results depend on the processing

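Alternatives changed 1 choice at a time, and 25 of 38 left the count of members within 1.5 times that reported. Among the strongest 1710 thresholded peaks only Rpn3 was left, so the count was 1 by window (0 core, 1 regulatory, against 12.5% of all genes) and 1 at the start (against 7.36%). Without upstream sequence 2 members had a thresholded summit in the gene body (0 core, 2 regulatory, against 10.2% of all genes) and 9 a pooled one (35.1% of all genes). With each summit given only to the gene with the nearest TSS, 2 had a thresholded one (0 core, 2 regulatory, against 14.2% of all genes). With 1 kb upstream the core count was 0, against 19.1% of all genes. Leaving out 1 replicate gave 5 to 7 members by thresholded window (0 to 1 core, 5 to 6 regulatory), against 21.2 to 21.3% of all genes. It gave 5 to 6 at the start, against 13.4 to 13.6%. By pooled window it gave 29 to 30, against 61.6 to 65.5%. At the start in the pooled list it gave 27 to 28, against 49.9 to 51.1%. Among the strongest 3421 peaks of a single replicate, Prosbeta6 was counted in neither list, and Rpn13 was not counted without replicate 1; in the full replicate lists both were counted by window. The core count of 1 thus rests on 1 distant peak. No paired analysis was possible because there is 1 group. Depth is unknown, so weak or missing peaks do not show that a site was unbound.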

Other observations

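Some member sites were listed for 1 replicate alone. Rpt3, an ATPase gene without a pooled summit, had 2 summits in its window in the replicate 2 list, the one at its start ranking 18050, and none in the replicate 1 list. The summit of Rpt6 (signal 38.5, rank 23837, 86 bp upstream of the TSS) lay in a replicate 2 peak only (rank 20402). Of the 49 pooled summits in members' windows 37 lay inside peaks of both replicates, 7 inside a peak of the first alone, 2 of the second alone and 3 inside no replicate peak. The 3 were the weaker summits in the windows of Prosalpha2 (signal 32.7), Prosbeta3 (32.8) and Rpt6R (33.5).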
